A study of Mus musculus with 15 samples.

Results

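The genes of major histocompatibility complex (MHC) antigen presentation were followed on 15 arrays of mouse anterior prostate. They were taken by name: every gene whose deposited symbol began with H2-, together with B2m, Tap1, Tap2, Tapbp, Ciita, Cd74, Nlrc5, Erap1, Cd1d1, Psmb8, Psmb9, Psmb10, Psme1 and Psme2. The rule reads names and no measured value. This gave 53 genes on 90 probes, of 28906 distinct names on 45281 probes. Of the 53 genes, 40 carried H2 symbols and 13 were among the 14 listed by name; no probe carried the symbol Nlrc5. Where a gene had several probes, the brightest stood for it. Control mice were intact (n = 3). Mutant mice carried, in addition to the heterozygous allele that the controls also had, floxed alleles of another gene, and were either intact (n = 6) or castrated (n = 6). Each array came from a separate mouse, which makes the replicates biological, and no drug treatment was recorded. Strain, age, any inducing agent and the time since castration are not stated in these sources.

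Class I molecules pair a polymorphic heavy chain with the light chain beta-2-microglobulin and display peptides from inside the cell to CD8+ T cells. Those peptides are cut by the proteasome, whose interferon-inducible subunits form the immunoproteasome, carried into the endoplasmic reticulum by the TAP transporter and trimmed and loaded there. Class II molecules, found mostly on macrophages, dendritic cells and B cells, display peptides from engulfed material to CD4+ T cells, and the transactivator Ciita switches their genes on. Epithelial cells and fibroblasts can also be brought to express both classes by interferon gamma.

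Values are the authors' processed intensities on a log2 scale, with group means given ± SD and the standard error (SE) beside a log2 fold change. Differences were tested with limma over 16635 genes, and a gene is called higher or lower where its Benjamini-Hochberg adjusted p was under 0.05. An array's background limit was the 95th percentile of 1491 sensory receptor probes, at intensities between 153.9 and 167.8, and a probe was tested if it exceeded the limit on at least 3 arrays. Intensities had not been background-subtracted to 0, so folds of dim genes are understated. Correlations between arrays of a group ran from 0.984 to 0.987 in control, from 0.928 to 0.984 in mutant intact and from 0.959 to 0.987 in mutant castrated tissue. The prostate secretory marker Pbsn lay between 11.77 and 11.88 in the controls and between 6.89 and 7.16 on the 12 mutant arrays, and Tgm4 between 15.43 and 15.65 and between 6.95 and 13.20. These markers identify the control tissue as prostate, and for the mutant arrays the tissue rests on the label. The summed intensity of 9 seminal vesicle genes was far higher in control replicates 2 and 3 and mutant intact replicates 2 and 3 (97451 to 142445) than on the other arrays (1251 to 22113). The androgen-dependent secretory gene Msmb read 11.41 and 12.85 in castrated replicates 1 and 5, against 7.11 to 7.39 on the other 4 castrated arrays. Tgm4 did not split the castrated arrays in the same way. It read 8.23 and 10.54 in replicates 1 and 5, 10.58 in replicate 3 and 6.95 to 7.21 in the rest. In the controls Msmb ran from 9.45 to 14.31. Msmb was not uniform in intact mutant tissue either, at 7.31 in replicate 1 and 10.47 to 12.69 in the others, and it was not called between the mutant groups (-1.96, adjusted p = 0.451). Calls that change when the 4 arrays high in seminal vesicle genes, or castrated replicates 1 and 5, are left out are given with and without them. Both choices were made after the data were seen, and the first leaves 1 control array, assumed to vary like the other groups.

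In intact mutant prostate most of the presentation machinery was higher than in intact control prostate. Of the 53 genes, 41 passed the filter and were tested: 29 were higher, 2 were lower and 10 were not called. Over all genes tested, 43.7% were called, 18.3% higher and 25.4% lower. The median log2 fold change was 1.34 over the 41 genes and -0.04 over all genes. A gene that passed the filter only through the mutant arrays had to differ, so the 30 genes above the background limit on all 3 control arrays are the firmer count, with 25 higher and 2 lower. That is 83.3% higher, against 17.3% of the 11567 genes that met the same condition. With no filter and all 53 genes tested, 26 were higher and 3 lower. In 32 of the 41 genes every mutant intact array lay above every control array, as did 17.9% of all genes tested. The 41 include 6 genes above the limit on no control array. Without the 4 arrays high in seminal vesicle genes, 15 of the 31 calls remained, the other 16 kept their sign but missed the threshold, and 3657 of all genes were called.

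**Figure D1:**
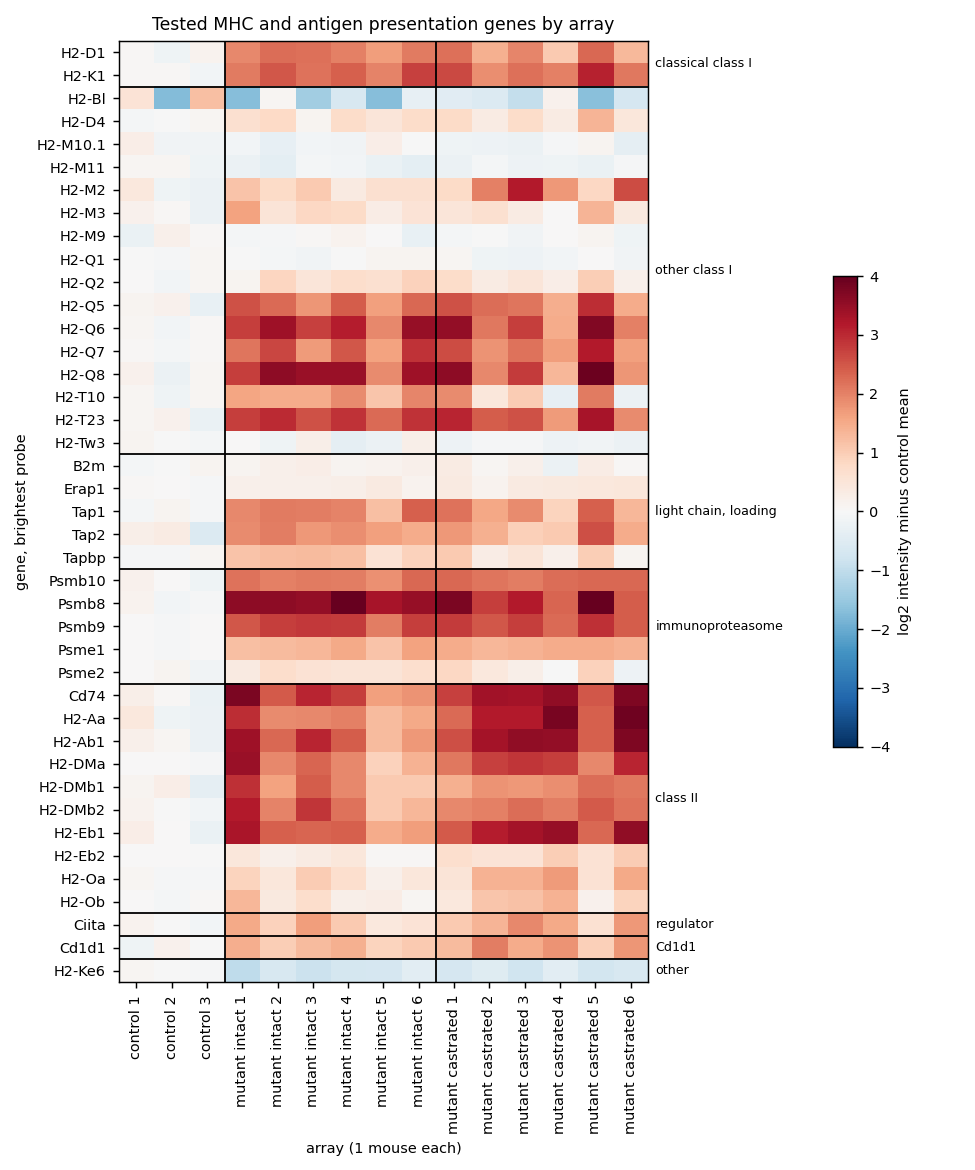
Heat map of the 41 tested genes (rows, grouped by role) on the 15 arrays (columns, 1 mouse each), coloured by log2 intensity minus the control mean. Red fills most rows of both mutant groups, B2m, H2-Q1, H2-M9 and H2-Tw3 stay near white, and H2-Ke6 is blue. Most class II rows are darkest in mutant intact replicate 1 and in the castrated arrays other than 1 and 5, with H2-DMb1, H2-DMb2, H2-Eb2 and H2-Oa as exceptions.

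The 2 classical class I heavy chains were both higher. H2-K1 measured 10.58, 10.76 and 10.76 in the controls, and ran from 12.68 through a median of 12.99 to 13.44 in mutant intact tissue. The groups lay far apart, with a log2 fold change of 2.31 (SE 0.23, 4.97-fold, adjusted p = 1.37e-06). H2-D1 was brighter, at 12.76, 12.96 and 13.05 in the controls and from 14.59 through 14.95 to 15.16 in mutant intact tissue. It rose by 2.01 (SE 0.24, 4.04-fold, adjusted p = 6.88e-06). A second probe of each gene gave log2 fold changes of 2.29 (H2-K1) and 1.97 (H2-D1). Another H2-D1 probe was not tested, with group means of 7.12 and 7.0. Class I heavy chains are near-identical in long stretches, so a probe named for one of them may also read its neighbours.

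The 27 other class I genes include the Q, T and M families. Of the 16 tested, 9 were higher, 1 was lower and 6 were not called. RefSeq lists H2-Q5, H2-T10, H2-D4 and H2-Bl as transcribed pseudogenes. The largest rise was in H2-Q8, a Q-region heavy chain, which stood at 7.62, 7.95 and 8.03 in the controls and from 9.77 through 11.29 to 11.46 in mutant intact tissue (log2 fold change 3.1, SE 0.51, 8.56-fold, adjusted p = 0.000178). H2-Q6, H2-Q7 and H2-Q5 were higher by 2.91, 2.24 and 2.16. Dimmer tested probes gave smaller values for H2-Q7 (0.64, and 0.27 with limma adjusted p = 0.104, not called) and H2-Q5 (0.85). The dimmer H2-Q8 probe gave 3.58. H2-Q7 encodes the surface antigen Qa-2. H2-T23 encodes Qa-1, which shows class I leader peptides to the CD94/NKG2 receptors of natural killer cells. Its controls read 11.20, 11.54 and 11.63, and the mutant intact arrays ran from 13.72 through 14.27 to 14.44. Mutant and control arrays were clearly separated, and the log2 fold change was 2.72 (SE 0.29, 6.59-fold, adjusted p = 2.92e-06). H2-T10 was higher by 1.58 (SE 0.45, adjusted p = 0.00986), and its 2 dimmer probes by 2.08 and 2.79. Without the 4 arrays high in seminal vesicle genes, H2-Q8 (2.73, adjusted p = 0.0583) and H2-T10 (1.54, adjusted p = 0.215) were not called.

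The smaller rises were in H2-M3, which presents N-formylated peptides (0.76, adjusted p = 0.0354), H2-Q2 (0.62, adjusted p = 0.0115) and H2-D4 (0.58, adjusted p = 0.0312). H2-M11 was called lower, by -0.25 (adjusted p = 0.0392), from controls of 7.46, 7.71 and 7.72 to a range of 7.23 to 7.55. The calls of H2-M3, H2-D4 and H2-M11 each disappeared when any of several single arrays was left out, with adjusted p up to 0.135, 0.0993 and 0.156. The H2-Q2 call disappeared without control replicate 2 (adjusted p = 0.0535). None of these 4 was called without the 4 arrays high in seminal vesicle genes, where H2-M3 was at 0.64 (adjusted p = 0.391), H2-Q2 at 0.56 (adjusted p = 0.235), H2-D4 at 0.71 (adjusted p = 0.148) and H2-M11 at -0.34 (adjusted p = 0.0885). H2-Q1, H2-M9, H2-M10.1 and H2-Tw3 had log2 fold changes between -0.07 and 0.00, none called, with SE of 0.08 to 0.13. H2-Bl varied most among the controls, at 9.33, 7.06 and 9.98, and was not called (-0.95, SE 0.57, adjusted p = 0.193). Without control replicate 2, the low array, it was called lower (-1.81, adjusted p = 0.01). H2-M2 was not called either (0.77, SE 0.42, adjusted p = 0.159).

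B2m, the light chain that every classical class I heavy chain needs, stood apart from its partners. It read 15.14, 15.20 and 15.32 in the controls and from 15.32 through 15.39 to 15.48 in mutant intact tissue. The groups met at 15.32, and the difference of 0.17 (SE 0.10, adjusted p = 0.204) was not called. B2m lay within 0.07 to 0.59 log2 units of the brightest probe of each array, so the scanner's upper range may compress its differences; whether it did was not tested. On their brightest arrays Cd74 and H2-D1 came within 0.30 and 0.37 log2 units of the top, so the same limit holds for their folds. Its second bright probe gave 0.09. After quantile normalization B2m was called higher (0.39, adjusted p = 0.00431).

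The genes that move and load class I peptides were higher in 4 of 5 cases, B2m being the exception. Tap1, a subunit of the peptide transporter, stood at 8.14, 8.17 and 8.34 in the controls and from 9.42 through 10.25 to 10.62 in mutant intact tissue, a rise of 1.94 (SE 0.29, 3.85-fold, adjusted p = 6.71e-05). Tap2, its partner subunit, rose by 1.78 (SE 0.29, adjusted p = 0.000144). Tapbp, or tapasin, which bridges the transporter and the class I molecule, rose by 1.06 (SE 0.21, adjusted p = 0.000729). The trimming peptidase Erap1 was dim, above background on 0 control arrays and 1 mutant intact array, and its difference of 0.21 was called (adjusted p = 0.0315) but lost without any of the 3 control arrays or mutant intact replicate 5 (adjusted p between 0.0541 and 0.116). Without the 4 arrays high in seminal vesicle genes, neither Tapbp (1.01, adjusted p = 0.074) nor Erap1 (0.19, adjusted p = 0.367) was called.

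All 5 immunoproteasome genes were higher. Psmb8, the inducible chymotrypsin-like subunit, showed the largest rise of the 41 genes. Its controls read 8.90, 8.94 and 9.15, and the mutant intact arrays ran from 12.29 through 12.55 to 13.02 (log2 fold change 3.59, SE 0.32, 12-fold, adjusted p = 3.83e-07). Its dimmer probe gave 2.32. Psmb9, the inducible caspase-like subunit, stood at 9.61, 9.68 and 9.69 in the controls and from 11.71 through 12.42 to 12.50 in mutant intact tissue (2.62, SE 0.17, 6.13-fold, adjusted p = 1.69e-08). Psmb10, the inducible trypsin-like subunit, had the smallest adjusted p among the 41 genes (2.07, SE 0.10, 4.20-fold, adjusted p = 1.15e-09). Psme1 and Psme2 encode the 2 subunits of the proteasome activator that interferon gamma induces, and rose by 1.34 (adjusted p = 2.45e-08) and 0.56 (adjusted p = 0.035). The Psme2 call was lost on leaving out any of 6 single arrays, with adjusted p between 0.052 and 0.123, and without the 4 arrays high in seminal vesicle genes (0.50, adjusted p = 0.362). The subunits of the constitutive particle did not move as a body: of 14 tested genes of that list, 2 were higher and 2 lower, with a median of 0.00. Of all genes tested 18.3% were higher and 25.4% lower, with a median of -0.04. Psmb6, the constitutive counterpart of Psmb9, was higher by 0.50 and the assembly factor Pomp by 0.47, while the alternative activators Psme4 and Psme3 were lower by -0.51 and -0.28. Psmb5, the counterpart of Psmb8, was at 10.42 in control and 9.84 in mutant intact tissue and was not called (-0.58, adjusted p = 0.117).

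Promoters are shown for class I and peptide supply genes that rose and for B2m, which was not called; each sequence is the stretch just before the RefSeq transcription start (GRCm38.p6), read on the gene's own strand. Capitals mark matches, on either strand, to the interferon-stimulated response element searched as GAAA, any 2 bases, GAAA, the gamma-activated site searched as TTC, any 3 bases, GAA and the CCAAT box. The first 2 sequences hold a match to the response element, H2-D1 holds only CCAAT matches, Psmb8 holds a gamma-activated site match, and the last is the whole stretch of 225 bases between the starts of Psmb9 and Tap1, which run in opposite directions.
B2m (chr2:122147487-122147686, plus strand): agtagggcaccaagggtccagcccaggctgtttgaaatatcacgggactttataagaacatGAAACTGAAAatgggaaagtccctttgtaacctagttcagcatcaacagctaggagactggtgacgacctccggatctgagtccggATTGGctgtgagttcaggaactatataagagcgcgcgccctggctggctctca
H2-T23 (chr17:36032702-36032901, minus strand): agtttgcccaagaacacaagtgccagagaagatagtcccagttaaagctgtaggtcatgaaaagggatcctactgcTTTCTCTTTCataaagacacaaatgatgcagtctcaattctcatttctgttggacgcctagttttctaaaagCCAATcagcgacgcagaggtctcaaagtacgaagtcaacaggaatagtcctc
H2-D1 (chr17:35262894-35263093, plus strand): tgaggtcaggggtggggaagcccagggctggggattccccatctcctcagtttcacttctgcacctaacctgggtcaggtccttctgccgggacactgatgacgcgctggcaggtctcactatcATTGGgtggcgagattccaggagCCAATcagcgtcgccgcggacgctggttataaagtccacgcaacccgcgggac
Psmb8 (chr17:34197995-34198194, plus strand): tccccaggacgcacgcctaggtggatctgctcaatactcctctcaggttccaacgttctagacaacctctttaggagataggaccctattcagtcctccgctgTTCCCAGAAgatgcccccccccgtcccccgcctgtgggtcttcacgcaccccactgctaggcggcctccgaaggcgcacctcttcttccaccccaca
Psmb9 (chr17:34187331-34187555, minus strand): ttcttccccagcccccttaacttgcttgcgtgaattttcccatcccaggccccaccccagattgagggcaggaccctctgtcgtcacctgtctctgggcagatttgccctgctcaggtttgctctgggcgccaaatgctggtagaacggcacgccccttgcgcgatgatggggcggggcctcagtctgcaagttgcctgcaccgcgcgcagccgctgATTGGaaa

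Of the 53 genes, 38 had a promoter window in the table used, from 250 bases before to 50 bases after the start, and 4 of them (H2-DMa, H2-K1, H2-M9 and Psme2) had 2, which gave 42 windows. The response element letters occurred in 5 of the 42 windows, those of B2m, H2-T23, Erap1, Psme1 and H2-T22, against 3.44% of 32851 windows of the same length. The gamma-activated site letters occurred in 4, those of Psmb8, H2-DMb2, H2-M3 and H2-M11, against 8.3%. A kappa B site searched as GGG, any 5 bases, CC occurred in 21 of 42, against 50.8%. The windows of Psmb9 and Tap1 share 275 bases, so they are not separate sequences. These are exact letter matches in a fixed window, and no binding was measured. A variant form of an element is missed by such a search, so a window without the letters may still hold one. The part of these elements in the changes was not tested.

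Class II genes were higher as well. Of the 10 tested, 7 were higher and none lower, and in all 10 every mutant intact array lay above every control array. H2-Eb2, H2-Oa and H2-Ob passed the filter only through mutant arrays, so their separation was partly built in. Of the 7 calls only that of Cd74 held in every alternative; the other 6 were lost without the 4 arrays high in seminal vesicle genes. Cd74, the invariant chain that escorts new class II molecules, stood at 11.08, 11.42 and 11.59 in the controls and from 13.00 through 13.96 to 15.11 in mutant intact tissue (log2 fold change 2.57, SE 0.39, 5.94-fold, adjusted p = 8.46e-05). The A molecule's chains H2-Aa and H2-Ab1 rose by 1.92 (SE 0.38, adjusted p = 0.000766) and 2.36 (SE 0.41, adjusted p = 0.000263). H2-Aa read 9.52, 9.60 and 10.17 in the controls and from 11.02 through 11.66 to 12.71 in mutant intact tissue. H2-Ab1 read 10.54, 10.86 and 10.99, against 12.04 through 13.16 to 14.19. H2-Eb1, the beta chain of the E molecule, stood at 9.93, 10.20 and 10.44 in the controls and from 11.68 through 12.54 to 13.46 in mutant intact tissue (2.25, SE 0.35, 4.76-fold, adjusted p = 0.000101). Without the 4 arrays high in seminal vesicle genes the 3 were at 1.53 (H2-Aa, adjusted p = 0.141), 2.01 (H2-Ab1, adjusted p = 0.0685) and 1.95 (H2-Eb1, adjusted p = 0.0531). The SD between mutant intact mice had a median of 0.69 over the 10 class II genes (0.18 to 0.87). Over the 18 tested class I heavy chain genes and pseudogenes it was 0.28 (0.10 to 0.75), and the ranges overlap.

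The peptide-exchange factor H2-DM loads class II molecules in endosomes. Its alpha chain H2-DMa stood at 8.41, 8.48 and 8.49 in the controls and from 9.37 through 10.37 to 11.91 in mutant intact tissue, a rise of 1.98 (SE 0.41, adjusted p = 0.00105). H2-DMb1 and H2-DMb2, its beta chains, rose by 1.83 (adjusted p = 0.000538) and 2.10 (adjusted p = 0.000218). Among castrated arrays both were highest in replicate 5 and lowest in replicate 1. Whether either probe also reads the other gene was not tested. For the alpha chain and both beta chains, calls also depended on the arrays in the fit. Without the 4 arrays high in seminal vesicle genes these were at 1.90 (H2-DMa, adjusted p = 0.0975), 1.63 (H2-DMb1, adjusted p = 0.0717) and 1.80 (H2-DMb2, adjusted p = 0.0537). On dimmer probes H2-DMa rose by 1.72, while H2-DMb2 was at 0.20 and not called (limma adjusted p = 0.237). H2-DO restrains H2-DM, mainly in B cells. Its chains H2-Oa and H2-Ob were dim, above background on no control array and on 5 and 3 of the mutant intact arrays. Their differences of 0.60 (adjusted p = 0.0621) and 0.50 (adjusted p = 0.156) were not called, although H2-Oa was called without mutant intact replicate 5 (0.68, adjusted p = 0.0386). H2-Eb2, a second E beta gene, read 6.95, 6.98 and 7.0 against 7.02 through 7.24 to 7.44 and was not called (0.26, adjusted p = 0.121). H2-Ea, the gene of the E alpha chain, is listed by RefSeq as a transcribed pseudogene. It was above background on 1 of the 15 arrays and was not tested. Ciita, the class II transactivator, was above background on all 6 mutant intact arrays and on none of the controls, where it read 6.98, 7.06 and 7.24; the mutant intact arrays ran from 7.5 through 8.08 to 8.75. It was at least 1.65-fold higher (fitted log2 fold change 1.01, SE 0.29, adjusted p = 0.0112), and was not called without the 4 arrays high in seminal vesicle genes (0.73, adjusted p = 0.317).

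Class II promoters carry a conserved module that ends in a CCAAT box bound by NF-Y. Of the 9 windows of 8 class II genes, 8 held the letters CCAAT on one strand or the other, at 35 to 198 bases before the start for the match nearest to it; the exception was 1 of the 2 windows of H2-DMa. The letters occurred in 33 of the 42 windows of the genes studied and in 37.4% of all 32851 windows. None of the 9 held the response element letters. The 150 bases before the start of 4 of these genes are shown, 3 of genes that rose and H2-Oa, which was not called in mutant intact tissue, with CCAAT matches in capitals.
H2-Aa (chr17:34287824-34287973, minus strand): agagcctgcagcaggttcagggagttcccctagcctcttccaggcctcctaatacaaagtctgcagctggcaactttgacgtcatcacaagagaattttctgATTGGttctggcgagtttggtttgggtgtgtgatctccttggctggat
H2-Eb1 (chr17:34305717-34305866, plus strand): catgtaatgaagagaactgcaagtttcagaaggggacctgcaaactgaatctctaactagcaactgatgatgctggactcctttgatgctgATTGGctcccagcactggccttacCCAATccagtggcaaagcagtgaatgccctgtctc
H2-DMb1 (chr17:34153041-34153190, plus strand): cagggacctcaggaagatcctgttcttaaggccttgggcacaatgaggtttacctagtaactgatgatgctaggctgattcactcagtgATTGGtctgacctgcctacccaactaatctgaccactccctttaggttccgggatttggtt
H2-Oa (chr17:34092229-34092378, plus strand): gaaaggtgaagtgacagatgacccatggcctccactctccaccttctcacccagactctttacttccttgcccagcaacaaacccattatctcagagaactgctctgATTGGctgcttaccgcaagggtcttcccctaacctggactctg

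Cd1d1, a class I-like molecule that presents lipids to natural killer T cells, stood at 7.40, 7.55 and 7.75 in the controls and from 8.47 through 8.73 to 9.03 in mutant intact tissue, a rise of 1.18 (SE 0.20, adjusted p = 0.00025). H2-Ke6 lies in the complex but encodes a hydroxysteroid dehydrogenase, and it went the other way. It read 12.61, 12.65 and 12.73 in the controls and from 11.65 through 11.97 to 12.23 in mutant intact tissue (-0.72, SE 0.11, adjusted p = 0.000106). The 12 genes that were not tested were H2-Ea, H2-M1, H2-Q10, H2-T18, H2-T22, H2-T24, H2-T3 and 5 of the M10 family. They were above background on at most 2 of the 15 arrays, and group means lay between 6.94 and 7.51.

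**Figure D2:**
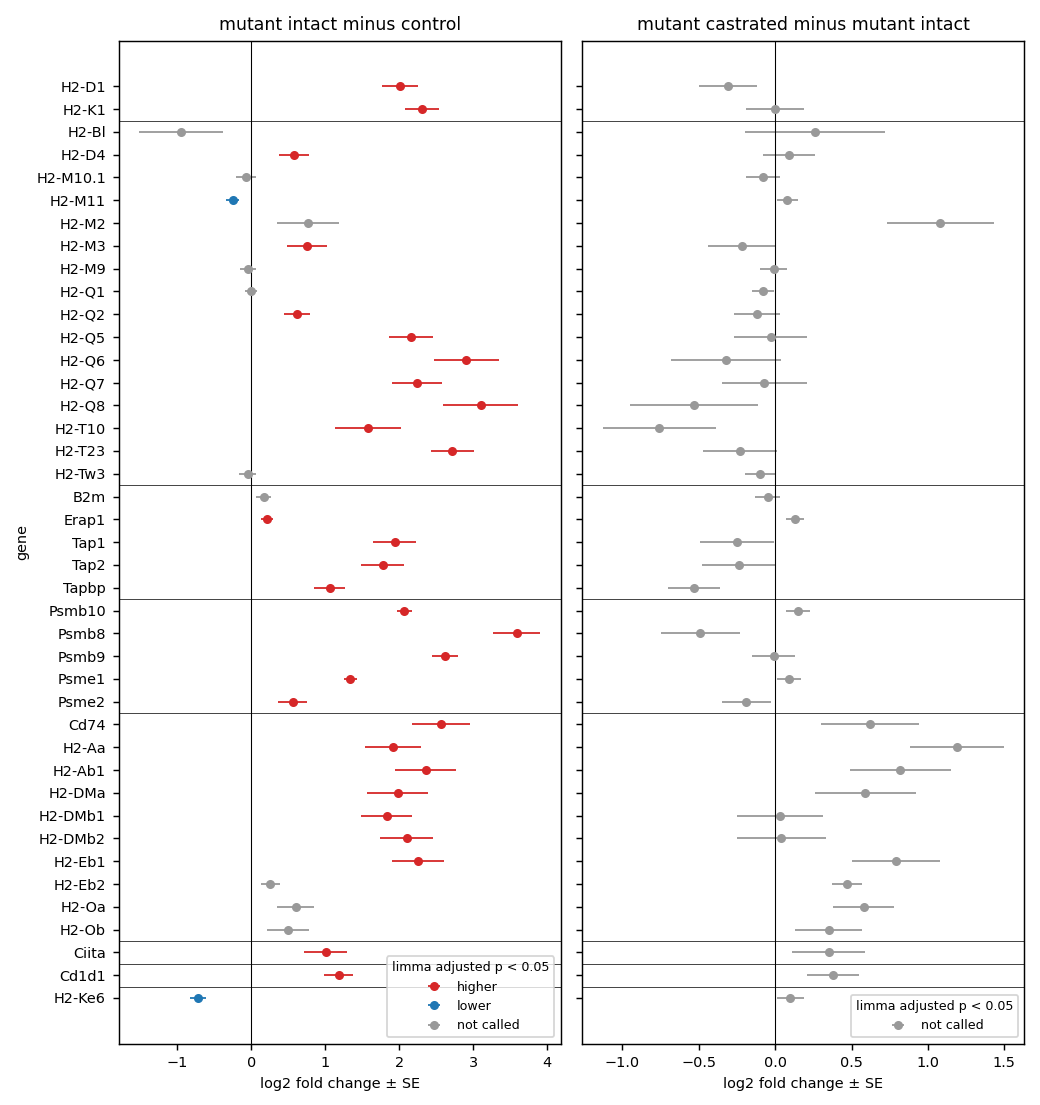
Log2 fold change ± SE of the 41 tested genes, grouped by role, for mutant intact against control (left) and castrated against intact mutant tissue (right; the horizontal scales differ), coloured by the limma call at an adjusted p of 0.05. On the left 29 genes are higher and 2 lower. On the right none is called, and all 10 class II genes lie above 0, beside 53.1% of all genes tested.

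Castration of mutant mice gave no called difference in these genes. Between mutant castrated and mutant intact tissue limma called 0 of 41, and 0 of all 16635 genes, or 0% (smallest adjusted p = 0.057). At an unadjusted p under 0.05, 8 of the 41 were higher and 1 lower, against 10.3% and 5.49% of all genes. The 8 were H2-Aa, H2-Ab1, H2-Eb1, H2-Eb2, H2-Oa, H2-M2, Erap1 and Cd1d1, and the 1 was Tapbp. H2-Eb2 and Erap1 passed the filter only with castrated arrays, so a difference was partly built in for them. Class II genes had log2 fold changes above 0 in 10 of 10 cases, beside 53.1% of all genes tested. Their median was 0.58 and their range 0.03 to 1.19, beside a median of 0.01 over all genes. The 10 genes were read on the same mice, so they are not independent. The 2 classical class I genes had 0.00 (H2-K1, SE 0.19) and -0.31 (H2-D1, SE 0.19), and the other 16 class I genes a median of -0.08. These misses of the threshold do not show that the groups were alike.

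H2-Aa had the largest difference, with castrated arrays from 12.04 through 12.92 to 13.64 against 11.02 through 11.66 to 12.71 in intact tissue (1.19, SE 0.31, unadjusted p = 0.00171, adjusted p = 0.105). The groups overlapped through mutant intact replicate 1 and castrated replicates 1 and 5. H2-Ab1 and H2-Eb1 were at 0.82 (adjusted p = 0.254) and 0.79 (adjusted p = 0.208), and Cd74 at 0.62 (adjusted p = 0.367). H2-Eb2 was the only one of the 41 whose groups did not overlap, with castrated arrays from 7.52 through 7.60 to 7.99 against a highest intact array of 7.44 (0.47, SE 0.10, adjusted p = 0.0817). Of all genes 0.775% were separated in that direction. H2-Eb2 was above background on 0 control, 2 mutant intact and 6 castrated arrays. It passed the filter only with castrated arrays, so its separation was partly built in. A probe listed under an older name for H2-Eb2 gave 0.13 (limma adjusted p = 0.512). H2-DMb1 and H2-DMb2 differed little, at 0.03 and 0.04 (SE 0.28 and 0.29). H2-M2 was uneven, from 7.95 through 9.05 to 10.34 in castrated tissue against 7.55 through 7.88 to 8.32 (1.08, SE 0.35, adjusted p = 0.16). Tapbp was at -0.53 (SE 0.17, adjusted p = 0.162) and H2-T10 at -0.76 (SE 0.37, adjusted p = 0.33). The dimmer Tapbp probe differed, at 0.04 (limma adjusted p = 0.959). The 2 dimmer H2-T10 probes gave 0.37 and -0.32 (limma adjusted p = 0.603 and 0.776).

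The absence of calls depended on single arrays. Without castrated replicate 1, 268 genes were called, and H2-Aa was called higher (1.35, adjusted p = 0.0451). Without castrated replicate 5, 235 genes were called, and H2-Eb2 was called higher (0.50, adjusted p = 0.0464). Without both, the arrays with high Msmb, 1681 genes were called (10.1%, with 6.41% higher and 3.7% lower), and 13 of the 41 described here, 7 higher and 6 lower. Higher were the class II genes H2-Aa (1.57, adjusted p = 0.00571), H2-Ab1 (1.17, adjusted p = 0.0448), H2-Eb1 (1.12, adjusted p = 0.0233), H2-Eb2 (0.51, adjusted p = 0.0194) and H2-Oa (0.89, adjusted p = 0.00314), with H2-M2 (1.61, adjusted p = 0.00311) and Cd1d1 (0.60, adjusted p = 0.0164). Lower were the class I genes H2-D1 (-0.58, adjusted p = 0.0368), H2-Q8 (-1.13, adjusted p = 0.0488) and H2-T10 (-1.34, adjusted p = 0.00582), and the supply genes Tapbp (-0.77, adjusted p = 0.00484), Psmb8 (-0.90, adjusted p = 0.00594) and Psme2 (-0.44, adjusted p = 0.0286). These arrays were picked by a measured gene after the data were seen, so the calls are no independent evidence of an effect. The calls rest on the brightest probe of each gene. With all arrays, the dimmer probes of Tapbp and H2-T10 differed from it, as given above. The dimmer Psmb8 probe was at -0.15 (limma adjusted p = 0.764), beside -0.49 for the brightest. Dimmer H2-Ab1 probes gave 0.42 and 0.62 beside 0.82, and a probe listed under an older name for H2-Eb2 gave 0.13 beside 0.47. Those of H2-Q8 (-0.37 beside -0.53) and H2-Oa (0.36 beside 0.58) were also smaller. For H2-D1 the second probe was close (-0.29 beside -0.31).

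Within the castrated group, class I and class II genes ordered the mice differently. Of the 21 class I, loading and immunoproteasome genes called in either comparison with control, 18 were highest in castrated replicate 1 or 5. In 16 of these the highest was replicate 5. The lowest castrated array was replicate 4 or 6 in 14 of the 21. Of the 11 class II genes including Ciita, the highest was replicate 4 or 6 in 8, and the lowest was replicate 1 or 5 in 10. For example, Psmb8 read 12.77, 11.77, 12.18, 11.34, 13.09 and 11.43 in castrated replicates 1 to 6, while H2-Aa read 12.04, 12.92, 12.92, 13.55, 12.15 and 13.64. Castrated replicates 4 and 6 were also the lowest in the interferon-induced gene Ifit3, at 10.60 and 11.64 against 13.46 to 14.64 on the other castrated arrays and 8.63 to 9.13 in the controls. Within the intact mutant group, class II genes were highest in replicate 1 in 9 of 11 cases and lowest in replicate 5 in 8, and class I and supply genes were lowest in replicate 5 in 15 of 21. These orders describe the mice and were not tested. No share over all genes was computed for these pairs of replicates, and replicates 1 and 5 had been picked by a measured gene.

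**Figure D3:**
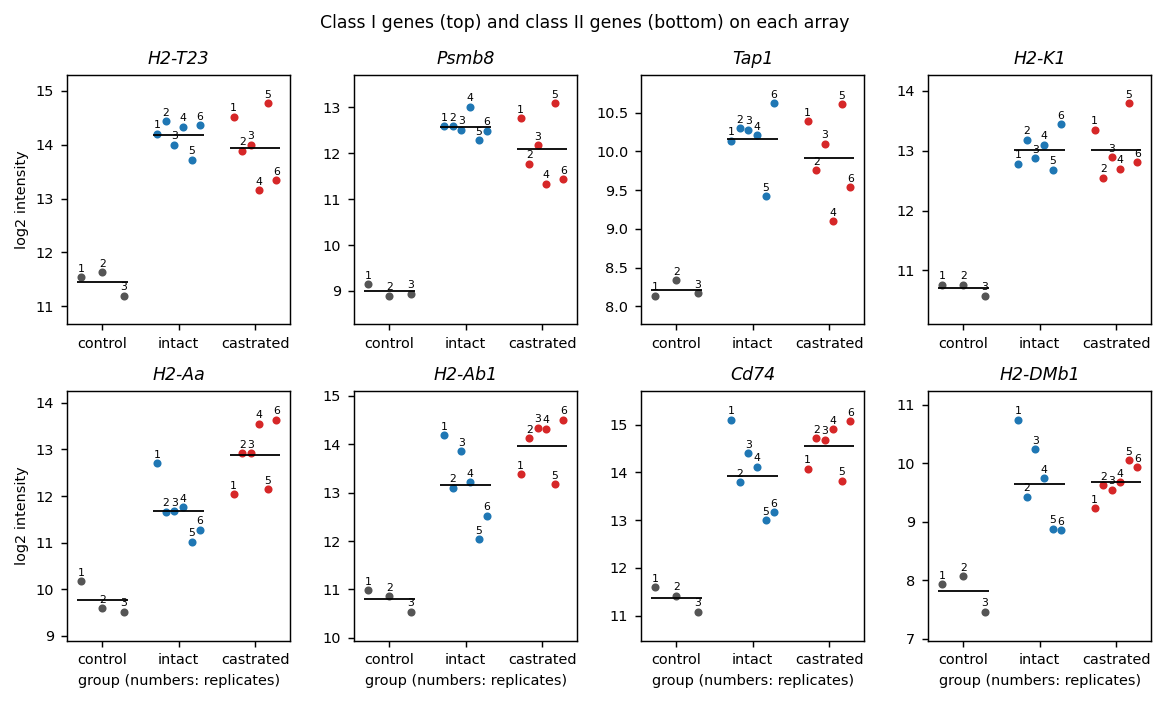
Log2 intensity of 4 class I and supply genes (top) and 4 class II genes (bottom) on each array, with replicate numbers and group means (lines). In castrated tissue replicates 1 and 5 are the top arrays for H2-T23, Psmb8, Tap1 and H2-K1 and the bottom arrays for H2-Aa, H2-Ab1 and Cd74; every mutant array lies above every control array in all 8 panels.

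Against the same 3 control arrays, castrated mutant tissue had 30 of the 41 genes higher, 1 lower (H2-Ke6, -0.63, adjusted p = 0.000359) and 10 not called, with a median log2 fold change of 1.54 and -0.03 over all genes. Of all genes tested 44.7% were called, 20.1% higher and 24.7% lower, and 20.2% had no overlap upward, as did 30 of the 41. These counts again include genes that passed the filter only through mutant arrays. The comparison shares its controls with the first one, so the 2 sets of values are not independent. All 10 class II genes were called higher here, from 0.72 (H2-Eb2, adjusted p = 0.000303, at least 1.25-fold) to 3.19 (Cd74, adjusted p = 1.05e-05). Of these, H2-Eb2, H2-Oa and H2-Ob were above background on no control array. They passed the filter only through mutant arrays, so a difference was partly built in. H2-Aa, H2-Ab1 and H2-Eb1 stood 3.11, 3.18 and 3.04 above control, beside 1.92, 2.36 and 2.25 in intact tissue. H2-Oa was at least 1.76-fold higher (adjusted p = 0.00123), and Ciita at least 2.11-fold (adjusted p = 0.00145). H2-Ob was called (0.85, adjusted p = 0.0201) but not without control replicate 1 or 2 (adjusted p = 0.0547 and 0.0666). Without the 4 arrays high in seminal vesicle genes, 10 of the 31 calls were lost, among them H2-Oa (1.09, adjusted p = 0.087), H2-Ob (0.83, adjusted p = 0.25) and Ciita (1.22, adjusted p = 0.0864).

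Class I values against control were mostly no larger than in intact tissue. H2-K1 was 2.32 and H2-D1 1.70 above control, and 8 of the 16 other class I genes were higher. H2-M2 was called here (1.85, SE 0.42, adjusted p = 0.00237), and H2-M3 (0.53, adjusted p = 0.129) and H2-T10 (0.82, adjusted p = 0.154) were not. For H2-T10 the probes disagreed: its 2 dimmer probes were called, at 2.44 and 2.48, and the mean of its probes gave 1.91 (adjusted p = 0.000209). Psmb8, Psmb9 and Psmb10 were 3.1, 2.61 and 2.22 above control and Psme1 1.43, while Psme2 was not called (0.37, adjusted p = 0.15) with all arrays; it was called without castrated replicate 6 (0.48, adjusted p = 0.0414) and without castrated replicates 4, 5 and 6 (0.50, adjusted p = 0.0161), and H2-T10 was called without those 3 as well (1.13, adjusted p = 0.0121). Tapbp was just called (0.53, adjusted p = 0.0492) and H2-Q2 narrowly so (0.50, adjusted p = 0.0347). Each call was lost without any of several single arrays, with adjusted p up to 0.13 and 0.121. The dimmer Tapbp probe was called at 1.27 (limma adjusted p = 0.0024). H2-D4 (0.67) lost its call without control replicate 1 (adjusted p = 0.0553), and H2-Bl, not called with all arrays (-0.69), was called lower without control replicate 2 (-1.55, adjusted p = 0.0233). Without castrated replicates 1 and 5, neither H2-Q2 (0.32, adjusted p = 0.115) nor Tapbp (0.29, adjusted p = 0.16) was called. The class I and supply calls lost without the 4 arrays high in seminal vesicle genes were H2-Q8 (2.40, adjusted p = 0.0767), H2-M2 (1.44, adjusted p = 0.189), H2-D4 (0.74, adjusted p = 0.117), H2-Q2 (0.47, adjusted p = 0.302), Tap2 (1.32, adjusted p = 0.0611), Tapbp (0.59, adjusted p = 0.262) and Erap1 (0.31, adjusted p = 0.12). B2m was at 0.12 (SE 0.10, adjusted p = 0.388).

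Genes that act around presentation were described from lists of the same pathways. Against control, 18.3% of all genes tested were higher and 25.4% lower in mutant intact tissue, with a median of -0.04. In castrated tissue these were 20.1% and 24.7%, with a median of -0.03. Several of the shorter lists had counts near these shares, and no list was tested as a set. Of 18 tested genes of interferon gamma signalling and its targets, 11 were higher and 1 lower in mutant intact tissue, with a median of 0.93. The transcription factor Irf1, which interferon gamma induces and which acts on class I genes and Ciita, rose by 1.56 (limma adjusted p = 2.49e-09). The guanylate-binding proteins Gbp3 and Gbp2 and the GTPase Igtp rose by 3.38, 3.00 and 2.89. Ifng itself was not called (-0.02, SE 0.09), being above background on no intact array and on 4 castrated arrays, and its receptor chain Ifngr2 was lower by -0.30. In castrated tissue 10 of the 18 were higher and 1 lower against control.

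Of 6 tested factors that bind class II promoters, none was higher and 2 were lower in mutant intact tissue: Rfxap (-0.47, adjusted p = 0.0211) and Rfxank (-0.38, adjusted p = 0.0147), both subunits of the RFX complex. In castrated tissue the same list had 1 higher and 2 lower against control. Rfx5, the complex's DNA-binding subunit, was not tested. Of 6 genes of endosomal processing, 4 were higher: legumain (Lgmn, 2.42), cathepsin B (Ctsb, 1.82), cathepsin L (Ctsl, 0.59) and cathepsin S (Ctss, 1.57), the protease that trims the invariant chain. In castrated tissue 4 were higher and 1 lower. Of 8 class I chaperones and peptidases, 1 was higher (Tapbpl, 0.46) and 2 were lower (the translocon subunits Sec61a1, -1.28, and Sec61b, -0.78), and in castrated tissue 1 was higher and 4 were lower. The constitutive proteasome list had 2 higher and 3 lower in castrated tissue. Of 6 costimulatory and checkpoint ligands 4 were higher, with the inhibitory ligand Cd274 at 1.51, Cd86 at 1.31, Icosl at 0.65 and Tnfsf9 at 0.32, and 3 were higher in castrated tissue. Of 4 class I-like genes outside the complex, the Fc receptor Fcgrt was higher (1.5) and Mr1, which presents vitamin metabolites, lower (-0.75), with 1 in each direction in castrated tissue too. Of 7 receptors for MHC molecules, Lilrb4a (1.37) and Klrd1 (0.81) were higher and Cd8b1 lower (-0.58), and in castrated tissue 3 were higher and 1 lower. Cd8a and Klrc1 were above background on no array, while Cd8b1 averaged 12.51 in control tissue. No gene of these 8 lists was called between castrated and intact mutant tissue.

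Whole tissue was measured, so more presenting cells and more RNA per cell cannot be told apart. Some markers of such cells were also higher in mutant tissue against control. Of 10 macrophage markers, 9 were higher in mutant intact and 9 in castrated tissue against control. Their summed intensity was 3730 to 4629 in the controls, 11445 to 104994 in mutant intact and 17284 to 23824 in castrated tissue. It was highest in mutant intact replicate 1 and lowest among mutant arrays in mutant intact replicate 5, the arrays where most class II genes were highest and lowest in that group. In the castrated group it was lowest in replicates 1 and 5, at 17284 and 17607, the arrays where class II genes were mostly lowest. Between the mutant groups the macrophage markers had a median log2 fold change of 0.01, beside 0.58 for the class II genes. Of 8 markers common to leukocytes, 4 were higher in each comparison with control, with sums of 8284 to 16656, 8912 to 49058 and 13406 to 26654 in the 3 groups. Of 8 tested dendritic cell markers, 2 were higher and 1 lower in mutant intact tissue, and 3 higher and 1 lower in castrated tissue. Over all genes tested, 18.3% were higher and 25.4% lower in mutant intact, and 20.1% and 24.7% in castrated tissue. Dendritic cell sums were 1664 to 1839, 1734 to 3115 and 1912 to 2739.

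B cells also carry class II molecules and H2-DO. None of 6 tested B cell markers was higher in mutant intact tissue, 3 were in castrated tissue, and Pax5 was above background on no array. They included Cd79b, part of the B cell receptor (1.25, adjusted p = 0.0168), and Fcmr (1.12, adjusted p = 0.0242). Cd79b read 7.69 and 7.73 in castrated replicates 1 and 5 and 8.99 to 9.55 on the other 4, and Fcmr 7.17 and 7.30 against 8.09 to 8.84. B cell sums, to which the bright and uncalled Blnk contributes the largest share, were 2224 to 2948, 2248 to 2696 and 2474 to 3125. Of 10 T and natural killer cell markers, 4 were higher and 1 lower in mutant intact tissue, and 6 higher and 1 lower in castrated tissue. Their sums were 4488 to 6372, 3917 to 7744 and 4556 to 6910, and Gzmb and Ncr1 were above background on no array. Of 5 neutrophil markers, 3 and 4 were higher, with sums of 784 to 840, 2845 to 16241 and 6486 to 18577. The epithelium shifted too: luminal markers were higher in 4 and 6 of 8 cases, and basal markers in 7 and 7 of 8, with 1 lower in mutant intact tissue. Smooth muscle markers were lower in 8 of 8 cases in both, with sums of 58231 to 68132, 4947 to 26726 and 4932 to 16804. Of 7 endothelial markers, 3 were higher and 1 lower in mutant intact tissue and 2 higher and 1 lower in castrated tissue. Of 8 secretory prostate genes, 1 was higher and 3 lower, and 0 higher and 4 lower. Among castrated mice, the lowest readings came from replicates 1 and 5 in 6 of 10 macrophage, 3 of 6 B cell and 3 of 8 dendritic cell markers. The same held in 6 of 10 T and natural killer cell, 5 of 8 common leukocyte, 5 of 8 smooth muscle and 1 of 8 basal markers. It held in none of the 5 neutrophil, 8 luminal, 7 endothelial, 8 secretory and 7 seminal vesicle markers. No share over all genes was computed for this order, and replicates 1 and 5 had been picked by a measured gene. The part of these cell types in the changes of the presentation genes was not tested.

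**Figure D4:**
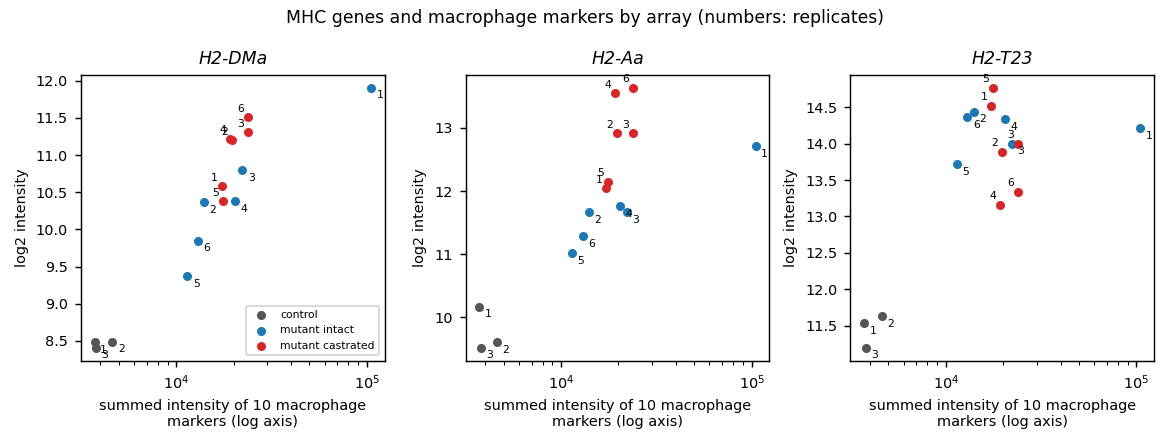
Log2 intensity of H2-DMa, H2-Aa and H2-T23 against the summed intensity of 10 macrophage markers (log axis) on the 15 arrays, coloured by group and numbered by replicate. Controls sit at the lower left of each panel; mutant intact replicate 1 lies far right at a sum of 104994, where H2-DMa is highest, while H2-T23 is high across mutant arrays whose sums run from 11445 upward.

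H2-K1 (2.23 to 2.38 over all alternatives), H2-T23, Psmb8, Psmb9 and Cd74 were called in every alternative, and none of the 41 genes reversed its direction once called.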

How the data were processed

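Total RNA from the anterior prostate of each mouse was hybridised to an Illumina BeadArray (1 colour). The authors' processed intensity values were deposited as 1 table of 45281 probes and 15 arrays on a linear scale, and how they corrected background and normalized is not stated in these sources. Array medians lay between 151.35 and 152.47. The 15 columns of a second deposited table, of intensity values that were not normalized, carry names that match no animal, so no value of theirs was used. The gene symbol of each probe was taken from that deposited table, and symbols of genes other than those studied were brought up to date through RefSeq (GRCm38.p6). Results for the genotype's own genes and for some others that the rule names are not reported here.

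Log2 intensities of the 24396 probes above background on at least 3 arrays were reduced to the brightest probe of each of 16635 genes. They were fitted in limma 3.58.1 (R 4.3.3) to all 15 arrays, each group with its own mean (12 residual degrees of freedom), two-sided, with Benjamini-Hochberg adjustment over all genes tested. Values of second probes come from the same fit over all 24396 probes. "At least" folds set the brighter group's mean against the mean of the dimmer group after its arrays were raised to the background limit where they lay under it. The script was tested on simulated data. The number of arrays limits precision.

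The genes and lists were chosen with earlier results of these data known. Every gene of the rule could be named; values by array were given for a fixed set of main genes, for the largest change in each role and for genes that went against their role, and up to 4 changed genes were named per pathway list, plus Ifng, Irf1, Rfx5 and Ctss. Ifngr2, Psmb5 and Ifit3 were chosen after their values were seen. Alternatives covered the filter, background limit, probe choice, scaling, normexp (offset 16), array weights, eBayes options, the arrays in the fit and single arrays left out.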

Additional observations from a re-analysis of the deposited data

Results flagged for a closer look

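In the castrated group Erap1, the peptidase that trims class I peptides, had 1 array far below the others: replicate 2 read 7.13, against 7.35 for the nearest array and 7.44 for the farthest, a gap of 0.695 of the group's range and above Dixon's 95% critical value for 6 arrays. Among 82 groups of 6 arrays examined this was the only 1 found, and chance alone flags about 1 in 20 groups. The probe was close to the background limit.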

How the results depend on the processing

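No gene reversed a called direction under any alternative. The count of the 41 genes changed ran from 26 to 30 for mutant intact against control and from 27 to 32 for castrated against control as single arrays were left out. Between castrated and intact mutant tissue, where 0 of the 41 and 0 of 16635 genes were called, leaving out single arrays gave 0 to 1 of the 41 and 0 to 268 of all genes. Array weights gave 6 of the 41 (H2-Aa, H2-Eb1, H2-Eb2, H2-M2 and H2-Oa higher, Tapbp lower) and 625 genes, and no filter on dim probes gave 1 gene of all tested and 0 of the 53. Of 2 choices made after the data were seen, leaving out the 2 castrated arrays with high Msmb gave 13 of the 41 and 1681 genes, and leaving out the 4 intact arrays high in seminal vesicle genes gave 15 of the 41 and 3657 genes for mutant intact, and 21 and 3967 for castrated, against control. That fit has fewer samples, with 1 control array. The cause of the other shifts was not tested. Of the 31 genes called in each comparison with control, 15 (mutant intact) and 21 (castrated) were called in every alternative. Of the genes not called, 5, 13 and 4 were called in at least 1 alternative in the 3 comparisons (mutant intact against control, castrated against intact, castrated against control). The planned fit without castrated replicates 4, 5 and 6, the animals with the highest ID numbers, gave 0 of the 41 between the mutant groups, and 33 of the 41 and 6362 genes for castrated against control. No paired analysis was possible because the labels give the groups no shared replicate numbers. Dim genes such as Erap1, H2-Oa, H2-Ob and H2-Eb2 lie near the background limit, and B2m, and on their brightest arrays H2-D1 and Cd74, lie near the top of the signal range, which limits what their differences can show.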

Other observations

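Nlrc5, the transactivator of class I genes, has no probe under its current symbol, but RefSeq assigns the older name AI451557 on the array to it, and that probe lies outside the rule used here. It was above background on no control array, reading 7.02, 7.12 and 7.12, and on every mutant array, at 9.69 ± 0.64 in mutant intact (n = 6) and 9.56 ± 0.45 in castrated tissue (n = 6). The fitted log2 fold change was 2.60 (SE 0.33, limma adjusted p = 1.3e-05) for mutant intact against control, 2.47 (adjusted p = 2.08e-05) for castrated against control and -0.14 (adjusted p = 0.856) between the mutant groups. The lowest mutant intact array was replicate 5, at 8.41, and the lowest castrated array replicate 4, at 8.86, the arrays where most class I genes were also low.

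Further probes under older names belong to genes already described. The probe 0610037M15RIK, assigned to H2-Q6, was 3.06 higher in mutant intact tissue (adjusted p = 0.000269), close to the 2.91 of the main H2-Q6 probe. The probe C2TA, assigned to Ciita, was dimmer than the main Ciita probe and was not called in mutant intact tissue (0.33, adjusted p = 0.149), but was called in castrated tissue (0.55, adjusted p = 0.0193). The probe A130038H09RIK, assigned to H2-Eb2, was called in castrated tissue (0.39, adjusted p = 0.0107) and not in mutant intact tissue (0.26, adjusted p = 0.0797). Between the mutant groups neither was called (0.22, adjusted p = 0.485, and 0.13, adjusted p = 0.512). Adjusted p-values of these probes come from limma over all 24396 tested probes.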
